A study of Rattus norvegicus with 11 samples.

Results

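Cultures of rat bone marrow mesenchymal stem cells (BMSCs), fibroblast-like cells that attach to plastic and grow out of marrow, served as the controls of the series. Their 4 libraries, of 11 messenger RNA libraries in all, were chosen by their titles and are described here. The other 7 libraries, 3 titled Bmsc-imDC and 4 titled Bmsc-IRDC, belong to the arms given medium conditioned by dendritic cells, unirradiated or irradiated, and enter no value below. The series text places the profiling at day 3 and does not say from when the days are counted. The labels give no strain, age, sex or passage of the rats, and what medium the controls received is not stated in them. The titles call the controls biological replicates, but no label says whether they came from separate animals or cultures, so the spread given below may be technical. Expression is given as FPKM, in which fragments are divided by transcript length and by the depth of the library, which allows levels of different genes to be set side by side per length. Values are the mean ± SD over the 4 control libraries (n = 4), and no group was compared with another.

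Marrow stromal cells hold the niche in which blood stem cells live, by way of the chemokine CXCL12 and of KIT ligand. They are also a source of osteoblasts, fat cells and cartilage cells. In culture they spread as fibroblasts that lay down collagen and fibronectin and build contractile fibres of actin. By convention they carry CD90, CD73, CD105, CD44 and CD29 at the surface and lack CD45, CD34, CD14, CD11b and MHC class II. Macrophages of marrow also attach to plastic and are a known companion of early stromal cultures.

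The values resolved into whole reads, which summed over genes to 21213271, 22504931, 25521204 and 21543955 in control replicates 1 to 4. These sums were taken as the depth of the libraries. Of 30214 gene names, 11886 had a mean of at least 1 FPKM, which is 39.3% and serves as the background for the lists below. The names take in microRNAs, small nucleolar RNAs and unnamed lines, and 19400 were above 0 in any control library. The lists hold chosen, mostly protein-coding genes, so this share is only a rough background for them. A level of at least 10 FPKM was reached by 6580 of the 30214 names, of at least 100 FPKM by 794 (2.63%) and of at least 1000 FPKM by 29. These are the background where list members are counted at 10 or 100 FPKM or more. The libraries lay close together, with Pearson's r of 0.9934 to 0.9943 between pairs over log2(FPKM + 1) of genes at 1 FPKM or more. Genes are not independent replicates. Control replicate 3, the deepest, stood slightly apart by gene length. Genes with transcripts under 1 kb had a median log2 ratio of -0.04 against the mean of the other 3 libraries, and genes of 4 kb or more had 0.02. In the other 3 libraries these medians lay between -0.02 and 0.02. Some genes that every cell uses were listed at 0 in all 4 libraries, among them Rpl10a, Rpl23a and Fth1, and Hprt1 stood at 0.590 ± 0.244 FPKM. A gene listed at 0 is therefore not shown to be silent. Genes with near-identical copies elsewhere in the genome, such as those of actin and ferritin, can share reads with them and are uncertain.

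The most abundant messages were those of mitochondria, of the matrix and of the cytoskeleton. The highest level was that of Mt-co1, a subunit of cytochrome oxidase encoded in mitochondria, at 3627, 3575, 3621 and 3568 FPKM in control replicates 1 to 4. The 40 highest genes held 13.3 ± 0.0896% of the summed FPKM and the 100 highest held 21.3 ± 0.151%. Mitochondrially encoded genes took 9 of the 40 places. Together the 13 of them in the table held 4.65 ± 0.0460% of the summed FPKM. Ribosomal protein genes held 5.74 ± 0.125%, spread over 81 genes whose single values are uncertain because close copies can take their reads.

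Matrix genes led among those encoded in the nucleus. Fn1, which encodes fibronectin, stood at 2252, 2197, 2265 and 2260.2 FPKM, and its long transcript took 1.89 ± 0.0265% of all reads. Sparc, the gene of a collagen-binding glycoprotein also called osteonectin, stood at 2193, 2140.4, 2156 and 2194 FPKM. Lum, the gene of lumican, a small proteoglycan that spaces collagen fibrils, stood at 2074, 2049.8, 2016 and 2048 FPKM. The lowest library of Sparc lay above the highest of Lum, and the same held for Lum over Col3a1 and for Col3a1 over Col1a1, the genes of the chains of collagens III and I (1917 ± 30.8 and 1764 ± 33.5 FPKM). Fn1 and Sparc each overlapped with a mitochondrial neighbour in rank. Matrix genes further down the 40 places were Thbs2 at 1294 ± 12.7, Thbs1 at 1230.0 ± 14.1, Postn at 1214 ± 11.4, Bgn at 884 ± 9.73 and Ccn2 at 769 ± 10.4 FPKM, which encode thrombospondins, periostin, biglycan and a matricellular growth regulator.

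The remaining places went to genes of several kinds, among them the cytoskeleton, translation, cell surface, proteases and lysosomes. Actb, the cytoplasmic actin gene, stood at 1533 ± 22.5 FPKM and Vim, the gene of the mesenchymal intermediate filament vimentin, at 1528 ± 14.7 FPKM, and their libraries overlapped. Gja1, the gene of connexin 43, which forms the gap junctions of stromal and bone cells, stood at 1437 ± 11.9 FPKM. The S100 genes S100a11 and S100a4 stood at 1152 ± 33.0 and 1019 ± 48.2 FPKM, and Lgals1, the galectin-1 gene, at 1017 ± 33.9 FPKM. Ctsb, which encodes the lysosomal protease cathepsin B, stood at 1114 ± 20.7 FPKM. Gpnmb, the gene of a glycoprotein of osteoblasts and of macrophages, stood at 1109.7 ± 12.7 FPKM. The line named LOC100360087, for which RefSeq lists the synonym Ftl1 (ferritin light chain), stood at 1445 ± 40.7 FPKM. Of the 39 pairs of neighbours in rank among the 40 genes, 13 did not overlap between libraries, so most of the order inside this group is not resolved. Several abundant genes outside the fixed lists were picked after their values were seen, namely Apoe at 517 ± 7.85, Selenop at 462 ± 4.33, Gpx3 at 439 ± 4.57, Mme at 369.7 ± 11.7, Ca3 at 349 ± 5.19, Sncg at 348 ± 9.61 and Aqp1 at 299.7 ± 3.76 FPKM. They encode apolipoprotein E, a selenium carrier, a secreted glutathione peroxidase, the surface protease neprilysin (CD10), a carbonic anhydrase, gamma-synuclein and a water channel.

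**Figure D1:**
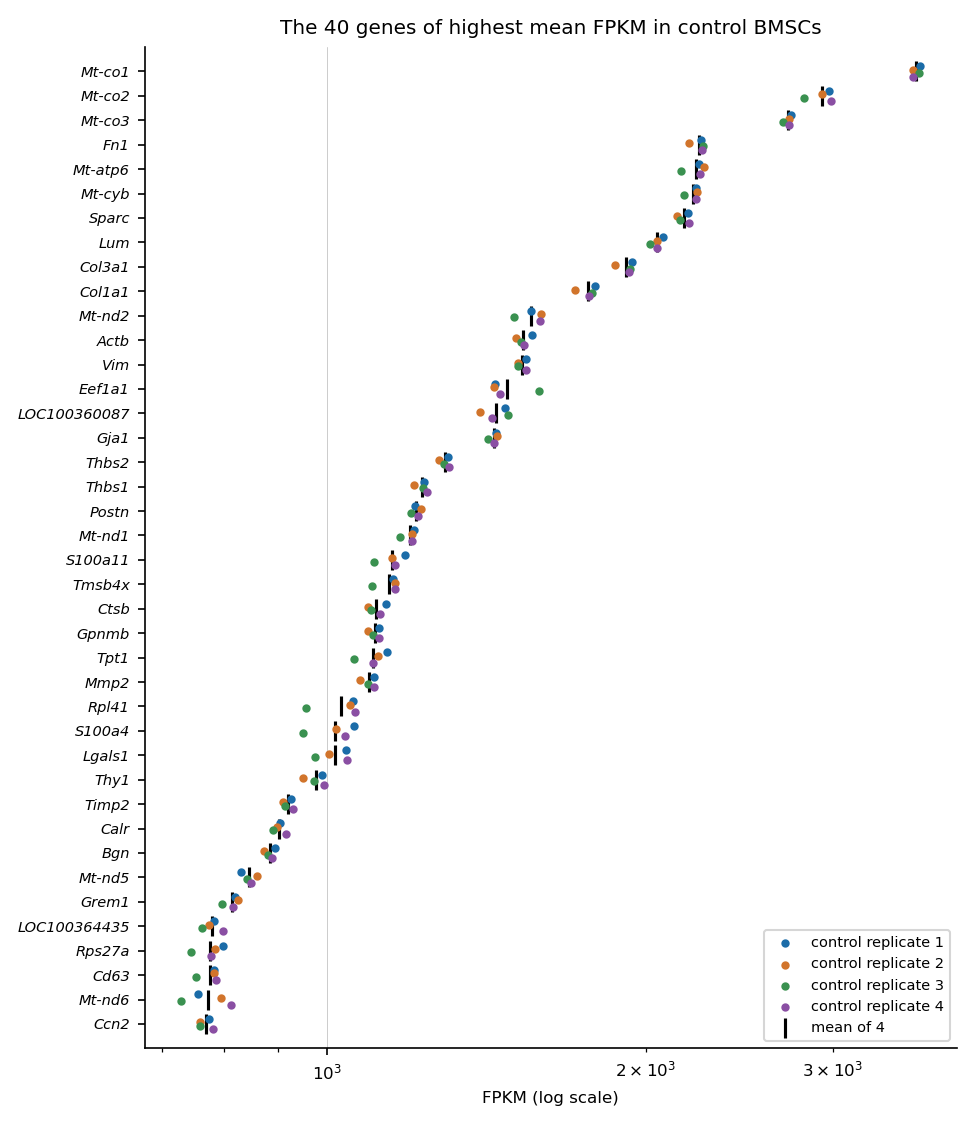
FPKM (log scale) of the 40 genes of highest mean in each of the 4 control libraries (coloured points) with the mean (black tick). Mt-co1, Mt-co2 and Mt-co3 stand clear of the rest, while most neighbours further down overlap, and control replicate 3 (green) is often the lowest among short transcripts such as Rpl41 and S100a4.

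The labelled identity was checked on the messages of surface markers. Of 17 stromal surface genes, 15 were at 1 FPKM or more and 13 at 10 or more. Thy1 (CD90) stood at 991, 949, 974 and 993 FPKM, Itgb1 (CD29) at 441, 450.1, 428 and 441 and Cd44 at 101, 105, 101 and 103. The other defining markers were lower, with Vcam1 (CD106) at 32.7 ± 0.886, Nt5e (CD73) at 22.8 ± 1.11 and Eng (CD105) at 22.6 ± 0.691 FPKM. Nt5e and Eng overlapped between libraries. Among mural and fibroblast markers, Pdgfrb stood at 187 ± 2.93, Pdgfra at 78.2 ± 1.13, Anpep (CD13) at 237 ± 2.06, Alcam (CD166) at 68.7 ± 2.29, Cspg4 (NG2) at 8.96 ± 0.643 and Mcam (CD146) at 6.35 ± 0.281 FPKM. Ngfr (CD271), a marker of uncultured marrow stroma, was near 0 at 0.0602 to 0.0956 FPKM.

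Markers that stromal cells should lack were not all absent. Ptprc, the gene of the leukocyte antigen CD45, stood at 17.0, 16.9, 18.4 and 18.0 FPKM in the 4 libraries. Cd14, the gene of a co-receptor for bacterial lipopolysaccharide, stood at 51.5, 46.1, 46.3 and 47.9 FPKM and Itgam (CD11b) at 5.52, 5.49, 5.92 and 5.95. Every library therefore held leukocyte messages at similar levels. In a bulk library, fewer cells of a type and less RNA per cell cannot be told apart. Cd34, carried by blood progenitors and endothelium, was at 1.04 ± 0.188 FPKM, near the 1 FPKM line. The B cell gene Cd79a lay at 0.0465, 0.0439, 0 and 0 FPKM. The class II genes RT1-Da and RT1-Ba, which present antigen to helper T cells, lay at 0.185 to 0.344 and 0.205 to 0.485 FPKM. The messages of the positive markers named by convention were thus present, while those of CD45, CD14 and CD11b go against a culture of stromal cells alone. The convention is about proteins at the surface, which were not measured here. Which cells carried the positive markers was not tested.

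Macrophage genes were the clearest sign of another cell type. Of 27 macrophage and monocyte genes, 22 were at 1 FPKM or more and 14 at 10 or more. Their summed level was 1263 to 1281 FPKM per library, and 745 to 764 without the highest member. That member, Lyz2, encodes the lysozyme of macrophages and stood at 517, 518, 528 and 515 FPKM. Cd68, a lysosomal glycoprotein gene, stood at 124, 119.8, 124 and 126 FPKM. Cybb, which encodes the catalytic subunit of the phagocyte oxidase, stood at 115, 122, 113 and 117. The adaptor genes Fcer1g and Tyrobp, which couple immune receptors to kinases, stood at 105 ± 4.31 and 69.4 ± 2.73 FPKM. All of these varied by a few percent between libraries, and the ratio of Cd68 to Thy1 was 0.126 to 0.128.

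Receptors and regulators of the macrophage lineage were present at lower levels. Csf1r, the receptor that macrophages need to survive, stood at 22.8 ± 0.773, Trem2, a lipid-sensing receptor gene, at 22.8 ± 0.569, Mrc1, the mannose receptor gene, at 47.9 ± 0.672, Adgre1 (F4/80) at 15.3 ± 0.951 and Spi1, the gene of the myeloid transcription factor PU.1, at 7.90 ± 0.351 FPKM. The complement genes C1qa, C1qb and C1qc, which tissue macrophages often express highly, stood at 3.96 ± 0.531, 1.58 ± 0.613 and 1.28 ± 0.507 FPKM. Other markers of resident macrophages were lower still. Cd163 stood at 0.956 ± 0.242, Vsig4 at 0.197 to 0.361 FPKM and Cx3cr1 at 0.0355, 0, 0 and 0.0350 FPKM, and Marco was listed at 0 in all 4 libraries. These levels give no share of macrophages. Genes that both cell types can express, such as Ctsb, Gpnmb and Apoe, cannot be assigned to either, and the part of macrophages in their levels was not tested.

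The promoters of macrophage genes are shown with the letters GAGGAA, the core of sites read by PU.1, because these genes are the ones that go against the label. Sequences are from RefSeq (GRCr8), 250 bases before to 50 after the gene start, 5′ to 3′ on the strand of the gene. Capitals mark GAGGAA or its reverse complement. The regions are chr7:54797962-54798261 (minus strand) for Lyz2, chr10:54882392-54882691 (minus strand) for Cd68 and chr13:52259697-52259996 (minus strand) for Ptprc.
Lyz2: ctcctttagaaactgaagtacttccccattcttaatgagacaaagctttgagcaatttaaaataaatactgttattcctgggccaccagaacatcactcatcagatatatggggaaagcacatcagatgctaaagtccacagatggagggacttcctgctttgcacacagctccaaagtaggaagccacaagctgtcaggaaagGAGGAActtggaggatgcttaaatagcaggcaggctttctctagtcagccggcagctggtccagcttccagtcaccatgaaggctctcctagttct
Cd68: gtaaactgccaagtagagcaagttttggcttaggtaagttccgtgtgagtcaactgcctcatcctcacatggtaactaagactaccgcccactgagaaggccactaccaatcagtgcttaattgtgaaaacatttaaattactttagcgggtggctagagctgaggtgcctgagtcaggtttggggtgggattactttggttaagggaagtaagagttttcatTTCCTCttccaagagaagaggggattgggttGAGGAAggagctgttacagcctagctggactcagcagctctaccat
Ptprc: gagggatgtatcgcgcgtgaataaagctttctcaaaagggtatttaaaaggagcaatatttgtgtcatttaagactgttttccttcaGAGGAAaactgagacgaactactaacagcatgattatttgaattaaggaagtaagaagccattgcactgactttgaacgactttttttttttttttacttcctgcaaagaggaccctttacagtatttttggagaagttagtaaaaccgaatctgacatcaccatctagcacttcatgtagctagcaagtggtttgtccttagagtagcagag
The letters began 46 bases before the start of Lyz2 and 163 before that of Ptprc on the strand of the gene. Cd68 held a copy on each strand. Among the 29 macrophage genes written in the list, 22 matched a promoter by symbol, and 16 of these (72.7%) held the letters on either strand. Of all 27457 promoters of that length, 27.5% held them. The same share was 7 of 13 for stromal surface genes, 11 of 34 for collagen chains, 6 of 9 for endothelial genes and 3 of 11 for lymphocyte genes. A match is a stretch of letters and not a site in use.

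Other blood cell types left few messages. Of 18 dendritic cell genes 4 were at 1 FPKM or more, with a summed level of 14.9 to 17.0 FPKM per library. The highest were Cd83 at 5.72 ± 0.325, Cd80 at 2.75 ± 0.245 and Cd74 at 2.63 ± 0.589 FPKM, which encode an activation marker, a co-stimulatory ligand and the invariant chain. Flt3, the growth factor receptor of dendritic cells, was at 0.0130 to 0.0591 FPKM, and Xcr1 and Siglech were listed at 0 in all 4 libraries. Of 15 neutrophil and mast cell genes, 1 reached 1 FPKM. That gene was Mmp8, a neutrophil collagenase gene, at 2.23 ± 0.265 FPKM, while S100a9 and Elane were listed at 0 in all 4 libraries. The summed level of this list was 2.26 to 3.65 FPKM.

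The lymphocyte and platelet lists each rested on 1 or 2 genes. Of 18 T, B and NK cell genes 2 were at 1 FPKM or more, Cd4 at 47.2, 44.2, 45.2 and 44.1 FPKM and Cd8a at 6.04, 5.67, 7.42 and 6.12. The CD3 genes of T cells Cd3e and Cd3d were listed at 0 in all 4 libraries and Lck, the kinase of T cell receptors, was at 0.285 ± 0.0681 FPKM. Rat macrophages are known to carry CD4. The summed level of the list was 51.0 to 54.0 FPKM, and 6.78 to 8.33 without Cd4. Of 15 erythroid and megakaryocyte genes 2 passed that line. Pf4, which encodes a chemokine of platelets and of macrophages, stood at 220.4, 223, 203 and 214 FPKM, and the whole list without it summed to 1.43 to 2.15. The haemoglobin gene Hbb and the platelet genes Ppbp and Gp1bb were listed at 0 in all 4 libraries.

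Lists of endothelial, epithelial and muscle genes had few members at 1 FPKM or more. Of 15 endothelial genes 2 were at 1 FPKM or more, Egfl7 at 6.04 ± 0.393 and Tie1 at 4.68 ± 0.0890 FPKM. The endothelial genes Cdh5, Kdr and Vwf lay at 0.00973 to 0.0576, 0.0421 to 0.0595 and 0.0503 to 0.110 FPKM, and Emcn, Cldn5 and Sox17 were listed at 0. Of 13 epithelial genes none reached 1 FPKM, and Epcam and Krt5 were listed at 0. Of 14 muscle genes 2 did, Des at 3.12 ± 0.287 and Tnnt3 at 2.21 ± 0.509 FPKM, while the muscle regulator Myod1 lay at 0.0228 to 0.143 FPKM. Of 13 Schwann and neural genes 6 did, a share of 46.2% against the background of 39.3%, led by S100b at 8.39 ± 0.608 and Tubb3 at 6.35 ± 0.299 FPKM, while Sox10, which defines Schwann cells, lay at 0.109, 0, 0.0129 and 0.153 FPKM. S100b stood at 8.04, 8.23, 8.00 and 9.29 FPKM in the 4 libraries. Of 11 osteoclast genes 5 did (45.5%). Of these, Ctsk, which encodes the collagen-degrading cathepsin K of osteoclasts and fibroblasts, stood at 214 ± 5.49 FPKM and Acp5 at 7.24 ± 0.411. The osteoclast genes Calcr and Dcstamp were listed at 0.

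**Figure D2:**
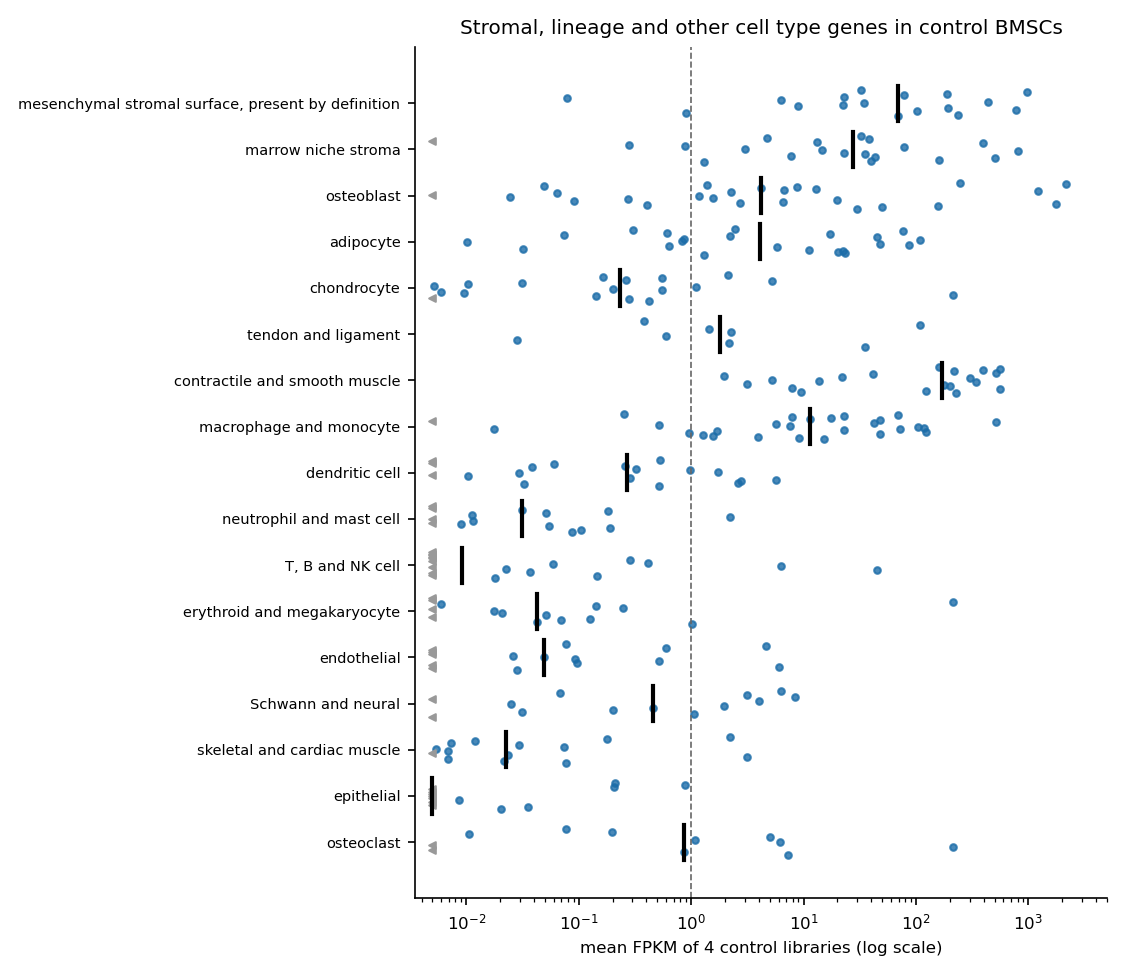
Mean FPKM over 4 control libraries (log scale) of each gene (blue point) in 17 lists of stromal, lineage and other cell type genes. Black bars are list medians, the dashed line is 1 FPKM, and grey triangles at the left edge are genes under 0.005 FPKM. By median, contractile, stromal surface and niche genes lie highest, and macrophage genes lie above the other lists of foreign cell types.

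Niche factors of marrow stroma were expressed while the receptor that marks niche cells in marrow was low. Of 20 niche genes 17 were at 1 FPKM or more. Cxcl12, whose product retains blood stem cells in marrow, stood at 513, 509.8, 495 and 507 FPKM. Kitlg, the gene of KIT ligand, stood at 80.0, 81.5, 77.4 and 77.1 FPKM, Csf1, the macrophage growth factor gene, at 158, 156, 163 and 161 and Angpt1 at 37.6, 40.2, 38.9 and 41.2. Il7 and Il15, which encode lymphocyte growth factors, were lower at 3.00 ± 0.338 and 14.5 ± 0.579 FPKM. The mesenchymal transcription factor genes of this list were Prrx1 at 398 ± 10.1, Ebf1 at 42.8 ± 2.08, Twist1 at 37.9 ± 2.40, Foxc1 at 22.9 ± 1.15, Ebf3 at 7.76 ± 0.305 and Twist2 at 4.76 ± 0.544 FPKM. Lepr, the leptin receptor gene that marks niche stroma in mouse marrow, was at 0.879 ± 0.112 FPKM. Nes, the nestin gene, was at 0.282 ± 0.0726 FPKM, and Thpo was listed at 0 in all 4 libraries.

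Of 25 osteoblast genes, 18 were at 1 FPKM or more and 5 at 100 or more. The highest are general matrix genes (Sparc, Col1a1 and Postn), which fibroblasts also use. Spp1, the osteopontin gene, stood at 256, 244, 242 and 249 FPKM. Runx2, the transcription factor that commits cells to bone, stood at 12.2, 12.2, 13.2 and 13.5 FPKM and Alpl, the alkaline phosphatase gene, at 28.9, 30.3, 29.3 and 30.1. Sp7, which acts after Runx2, was at 1.37 ± 0.381 FPKM, Dlx5 at 6.61 ± 0.593 and Msx2 at 1.16 ± 0.314 FPKM. Smpd3 and Phospho1, whose products act where mineral starts to form, stood at 8.75 ± 0.458 and 2.27 ± 0.317 FPKM, and Ifitm5, a gene of mineral-forming osteoblasts, at 1.55 ± 0.574 FPKM. Among other genes of mature osteoblasts and osteocytes, Bglap (osteocalcin) lay at 0.0912 to 0.581, Ibsp at 0.183 to 0.322, Dmp1 at 0.0681 to 0.115 and Sost at 0.0704, 0.0664, 0.0586 and 0 FPKM. Enpp1 and Ankh, whose products raise the mineral inhibitor pyrophosphate outside the cell, stood at 19.8 ± 0.703 and 49.6 ± 1.33 FPKM. Pth1r, the parathyroid hormone receptor gene, was at 6.72 ± 0.821 FPKM.

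Fat cell regulators and early fat cell genes were expressed, and several genes of the mature fat cell lay near or under 1 FPKM. Of 22 adipocyte genes 14 were at 1 FPKM or more. Pparg and Cebpa, the main transcription factor genes of fat cell formation, stood at 16.0, 17.9, 16.5 and 18.2 and at 23.1, 23.8, 23.9 and 23.3 FPKM. Lpl, which encodes the lipase that frees fatty acids from lipoproteins, stood at 108 ± 1.94 FPKM, Fabp4, the fatty acid carrier gene, at 86.1 ± 4.91, and Fasn, the fatty acid synthase gene, at 48.0 ± 1.59. Scd, a desaturase gene, was at 77.0 ± 1.91 FPKM and Plin2, the lipid droplet coat gene of many cell types, at 45.4 ± 0.811. Cfd, the adipsin gene, was at 11.1 ± 1.31 FPKM and Adipoq, the adiponectin gene, at 1.30 ± 0.158 FPKM. Plin1, the droplet coat of fat cells, was at 0.862 ± 0.190, Lipe at 0.836 ± 0.0409 FPKM and the insulin-regulated glucose transporter gene Slc2a4 at 0.177 to 0.444 FPKM. Fabp4 and Lpl are also expressed by macrophages, and the part of those cells was not tested.

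Cartilage genes were mostly below 1 FPKM, where 14 of 18 lay. Sox9, the cartilage transcription factor gene, stood at 2.58, 1.68, 2.20 and 2.10 FPKM. Acan and Comp, cartilage matrix genes, lay at 0.341 to 0.548 and 0.112 to 0.302 FPKM, and Col2a1, the main collagen gene of cartilage, was listed at 0, 0.0196, 0.00863 and 0.0102 FPKM. The exception was Col11a1 at 215 ± 1.59 FPKM, a fibrillar chain gene that fibroblasts use as well. Prg4, the lubricin gene of joint surfaces, was at 5.23 ± 0.151 FPKM. Of 8 tendon genes, Tnc (tenascin C) stood at 109 ± 0.812 FPKM, Scx, the tendon transcription factor gene, at 2.28 ± 0.386 and Tnmd at 0.378 ± 0.0687 FPKM.

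All 20 contractile genes in the list were at 1 FPKM or more, 15 at 10 or more and 12 at 100 or more. The list median was 169 FPKM. Acta2, the smooth muscle actin gene that marks activated fibroblasts, stood at 229, 225, 226 and 233 FPKM and Tagln at 530.4, 501, 501 and 509. Genes of actin filament and myosin proteins found in many spread cells were of the same order, with Tpm4 at 563 ± 9.63, Cald1 at 562 ± 9.90, Tpm2 at 398 ± 9.90, Flna at 340.0 ± 5.35, Myl9 at 300.1 ± 8.85 and Vcl at 161 ± 2.56 FPKM. Genes of differentiated smooth muscle were lower, with Lmod1 at 13.7 ± 0.340, Cnn1 at 7.94 ± 0.780, Myh11 at 5.24 ± 0.486 and Myocd at 1.97 ± 0.267 FPKM. Myocd encodes the coactivator that switches on the smooth muscle program.

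Hox genes, which record the position of a cell along the body axes, reached 1 FPKM in HoxC and HoxD. In HoxC, 7 of 9 genes were at 1 FPKM or more and the cluster summed to 74.6 ± 2.41 FPKM. HoxD had 3 of 9 and 12.7 ± 0.978 FPKM. None of 10 HoxB genes reached 1 FPKM, with a sum of 0.357 to 0.753 FPKM per library. Of 9 HoxA genes, 8 were listed at 0 in all 4 libraries, which does not show that the cluster is silent. Hoxc10 was the highest at 23.7, 25.2, 23.0 and 23.2 FPKM, followed by Hoxc6 at 15.8, 16.9, 16.7 and 16.9 and Hoxc8 at 16.2, 16.0, 16.6 and 15.4. Hoxc10 lay above both in every library, while Hoxc6 and Hoxc8 overlapped. Toward the end of the cluster Hoxc11 was at 4.04 ± 0.601 FPKM, Hoxc12 was listed at 0 and Hoxc13 lay at 0, 0.0450, 0 and 0.0940 FPKM. In HoxD the highest were Hoxd8 at 7.73 ± 0.240, Hoxd9 at 3.07 ± 0.569 and Hoxd4 at 1.13 ± 0.344 FPKM, and Hoxd10 lay at 0.119 to 0.591. The strand of the reads is not given in the sources used here, and Hox clusters hold antisense genes whose reads cannot then be told apart from those of the Hox gene.

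**Figure D3:**
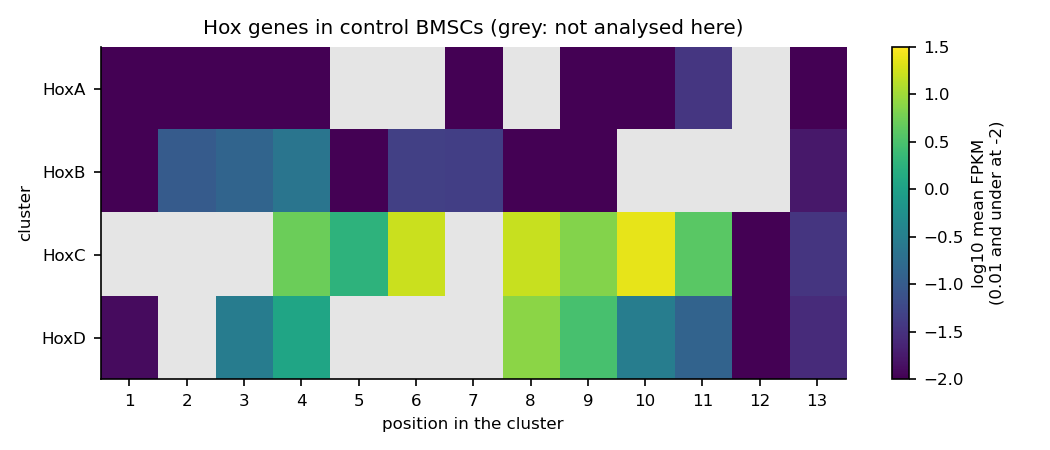
Mean FPKM over 4 control libraries on a log10 scale for each Hox gene, by cluster and position. Colour runs over the HoxC cluster from position 4 to 11 and over parts of HoxD, while the HoxA and HoxB rows are dark. Grey cells are positions that hold no Hox gene or were not analysed here.

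Of 41 collagen chain genes, 20 were at 1 FPKM or more and 12 at 100 or more. They held 1.64 ± 0.0277% of the summed FPKM and 3.64 ± 0.0555% of the reads, their transcripts being long. Col3a1 exceeded Col1a1 in each library, by a ratio of 1.08 to 1.09. Fibrillar collagen V, which starts fibrils of collagen I, was represented by Col5a2 at 526 ± 7.84, Col5a1 at 216 ± 6.27 and Col5a3 at 34.6 ± 1.53 FPKM. Col6a1 and Col6a2, chains of beaded filaments around cells, stood at 397 ± 9.71 and 369 ± 10.4 FPKM. Col14a1 and Col12a1, fibril-associated chains, stood at 512 ± 5.64 and 125 ± 1.50 FPKM. The basement membrane chains Col4a1 and Col4a2, whose genes are transcribed as a pair, stood at 223 ± 6.16 and 206 ± 6.05 FPKM, while Col4a3 and Col4a4 lay under 1 FPKM. Col8a1 was at 349.6 ± 2.92 FPKM and Col10a1, the chain of cartilage that turns to bone, at 0.0767 to 0.185 FPKM. The chain partner Col1a2 was not analysed here.

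Of 54 other matrix genes 49 were at 1 FPKM or more and 20 at 100 or more, and they summed to 16079.9 ± 126 FPKM. Among small proteoglycans, Lum stood above Dcn (decorin, 672 ± 11.97) by a ratio of 2.99 to 3.10, and Ogn and Prelp were at 24.5 ± 1.04 and 53.7 ± 1.60 FPKM. Vcan (versican) stood at 269 ± 5.04 and the microfibril gene Fbn1 at 227 ± 2.84 FPKM. Eln, the elastin gene, was low at 2.95 ± 0.125 FPKM beside these microfibril genes. Of the CCN family, Ccn2 was highest, followed by Ccn5 at 166 ± 3.00, Ccn1 at 118 ± 3.42, Ccn4 at 40.1 ± 2.11 and Ccn3 at 32.4 ± 1.16 FPKM. Mgp, the gene of an inhibitor of calcification, stood at 153 ± 5.02 FPKM. Aspn lay at 0, 0.0190, 0 and 0 FPKM and Mfap4 was listed at 0 in all 4 libraries.

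Promoters of a pair of these matrix genes are shown because they are among the 40 highest genes and hold the letters of a TATA box, in capitals. The regions, in GRCr8, are chr2:140677811-140678110 (plus strand) for Postn and chr1:22624565-22624864 (minus strand) for Ccn2.
Postn: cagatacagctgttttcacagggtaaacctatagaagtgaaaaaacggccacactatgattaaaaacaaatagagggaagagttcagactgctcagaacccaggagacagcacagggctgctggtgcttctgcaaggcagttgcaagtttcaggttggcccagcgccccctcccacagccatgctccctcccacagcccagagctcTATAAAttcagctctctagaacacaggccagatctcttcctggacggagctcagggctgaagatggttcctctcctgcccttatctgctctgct
Ccn2: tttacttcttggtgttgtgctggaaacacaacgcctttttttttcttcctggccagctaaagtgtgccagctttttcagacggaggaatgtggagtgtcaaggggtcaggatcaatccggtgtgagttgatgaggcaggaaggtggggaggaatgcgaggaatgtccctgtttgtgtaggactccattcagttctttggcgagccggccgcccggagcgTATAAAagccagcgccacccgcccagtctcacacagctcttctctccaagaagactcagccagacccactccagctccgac
TATAAA began 44 bases before the start of Postn and 31 before that of Ccn2, on the strand of the gene. Of the 40 highest genes, 20 matched a promoter by symbol and 5 of these held TATAAA on either strand. Of the matrix list, 9 of 39 held it (23.1%), and of all promoters of that length 14.3% did.

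Of 22 genes whose products fold, modify or cross-link collagen, 20 were at 1 FPKM or more and 10 at 100 or more. Lox, the lysyl oxidase gene, stood at 546, 549, 534 and 539 FPKM, above its relatives Loxl1 at 151 ± 4.37, Loxl2 at 141 ± 5.00, Loxl3 at 76.4 ± 2.16 and Loxl4 at 1.64 ± 0.0555 FPKM. Pcolce, which speeds the cleavage of procollagen, stood at 601 ± 10.9 FPKM, Serpinh1, the collagen chaperone gene, at 509.5 ± 7.31 and P4hb, a subunit of prolyl hydroxylase, at 484 ± 5.14 FPKM. Tgm2, a transglutaminase gene, was at 0.601 ± 0.145 FPKM.

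Of 39 protease and inhibitor genes 37 were at 1 FPKM or more. Mmp2, which encodes a gelatinase made by fibroblasts, stood at 1107, 1074, 1095 and 1108 FPKM, and Timp2, the inhibitor that also helps to activate it, at 925, 910.2, 913 and 929. Mmp2 exceeded Timp2 in every library, by a ratio of 1.18 to 1.20. Mmp14, the membrane protease that activates MMP2, was at 476 ± 6.80 FPKM. The collagenase gene Mmp13 was at 35.7 ± 1.15, the stromelysin gene Mmp3 at 9.62 ± 0.252 and the gelatinase gene Mmp9 at 1.09 ± 0.0404 FPKM. Mmp12, the elastase of macrophages, stood at 101, 102, 94.8 and 98.4 FPKM. Inhibitors other than Timp2 were Serpine2 at 420.4 ± 6.03, Timp1 at 395 ± 11.1, Cst3 at 251 ± 3.03, Serpinf1 at 218 ± 4.94 and Timp3 at 34.5 ± 0.767 FPKM. The plasminogen activator genes Plat and Plau stood at 29.99 ± 0.329 and 26.7 ± 0.752 FPKM. Among lysosomal proteases, Ctsd and Ctsl followed Ctsb at 712 ± 14.1 and 699.8 ± 9.04 FPKM, and their libraries overlapped.

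Of 41 growth factor genes 32 were at 1 FPKM or more. After Ccn2, given above, the highest was Fgf7, the keratinocyte growth factor gene, at 549, 552, 537 and 547 FPKM, above Gas6, whose product links apoptotic cells to the TAM receptors that take them up, at 467, 453, 457 and 469. Fgf10, a close relative of Fgf7, stood at 91.2 ± 2.78 FPKM. The angiogenic genes Vegfa and Vegfd stood at 70.5 ± 0.985 and 67.0 ± 2.94, Vegfb at 31.3 ± 2.51 and Vegfc at 24.2 ± 0.350 FPKM. Igf1 stood at 37.5, 43.2, 38.5 and 37.9 FPKM and Igf2 at 12.04 ± 0.478 FPKM. Other factors often credited to stromal cells were low, with Hgf at 1.55 ± 0.153, Fgf2 at 1.52 ± 0.126 and Bdnf at 1.75 ± 0.112 FPKM. Of the binding proteins that hold IGF, Igfbp4 and Igfbp7 were highest at 188 ± 4.96 and 185 ± 4.97 FPKM, with Igfbp5 at 17.3 ± 0.340, Igfbp6 at 13.1 ± 1.55, Igfbp3 at 10.1 ± 0.579 and Igfbp2 at 2.43 ± 0.330 FPKM, while Igfbp1 was listed at 0.

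The BMP antagonist Grem1 far exceeded the BMP ligands. This gene, which encodes gremlin 1, stood at 819, 825, 796 and 816 FPKM, and Bmp4, a ligand that gremlin binds, at 67.6, 69.2, 67.0 and 68.3. The ratio of Grem1 to Bmp4 was 11.9 to 12.1 in the 4 libraries. Fst (follistatin) and Fstl1 stood at 55.3 ± 1.05 and 531 ± 4.95 FPKM, and Chrd at 8.41 ± 0.492 FPKM. The other BMP ligand genes were lower, with Bmp3 at 11.96 ± 0.545, Bmp5 at 7.18 ± 0.594, Bmp2 at 4.13 ± 0.170 and Bmp6 at 1.14 ± 0.199 FPKM, and Bmp7 was listed at 0. The 3 TGF-beta genes were close to each other, with Tgfb1 at 49.4 ± 1.26, Tgfb2 at 49.4 ± 2.40 and Tgfb3 at 52.8 ± 1.39 FPKM. Inhba and Inhbb, the activin subunit genes, stood at 26.0 ± 0.177 and 28.0 ± 1.14 FPKM. Of 34 Wnt ligands and inhibitors 13 were at 1 FPKM or more, near the background share. Wnt5a, a ligand that acts largely outside beta-catenin, was the highest ligand at 104, 104, 102 and 105 FPKM. The next Wnt ligands were Wnt16 at 4.09 ± 0.305, Wnt9a at 3.81 ± 0.869 and Wnt4 at 3.13 ± 0.370 FPKM. Inhibitors were higher, with Sfrp1 at 284 ± 2.90, Dkk3 at 149.5 ± 1.55 and Sfrp4 at 96.7 ± 1.40 FPKM, while Dkk1 was listed at 0 in all 4 libraries.

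Of 35 chemokine genes 15 were at 1 FPKM or more, close to the background share, and 3 were at 100 or more. These were Cxcl12, Pf4 and Ccl2, the monocyte attractant gene, at 189, 182, 181 and 184 FPKM. Cxcl12 exceeded Ccl2 in each library by a ratio of 2.72 to 2.80. Ccl7, a second monocyte attractant gene, stood at 79.2 ± 1.43, and the neutrophil attractant genes Cxcl1, Cxcl6 and Cxcl3 at 34.9 ± 2.61, 9.17 ± 0.750 and 4.96 ± 0.548 FPKM. Cxcl2 lay at 0.0440 to 0.249 FPKM. The interferon-induced Cxcl10 lay at 0.123 to 0.311 FPKM and Ccl5 at 0, 0.0815, 0 and 0.

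Of 57 interleukin and other cytokine genes 21 were at 1 FPKM or more, near the background share, and 17 were listed at 0 in all 4 libraries. Csf1 was the only member at 100 FPKM or more. After Kitlg came Tnfsf18 at 29.5 ± 1.29, Il33 at 19.3 ± 0.768, Tnfsf12 at 19.1 ± 0.928, Il15 at 14.5 ± 0.579, Il1rn at 13.4 ± 0.951 and Il6 at 13.1 ± 0.632 FPKM. Il33 encodes an alarm cytokine held in the nucleus, Il1rn the antagonist of interleukin 1, and Il6 the cytokine that signals through gp130. Il1b and Il1a lay at 0.0561 to 0.506 and 0, 0.105, 0.216 and 0.219 FPKM, Tnf at 0, 0.0527, 0 and 0 and Csf3 at 0.0688 to 0.182, so these 4 inflammatory cytokine genes were near 0 in every control library. Tnfrsf11b, the gene of osteoprotegerin, the decoy that blocks the osteoclast factor RANKL, stood at 9.94 ± 0.535 FPKM, and Tnfsf11, the RANKL gene, was listed at 0. Mif, which most cell types express, was also listed at 0.

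Of 28 complement and defence genes 19 were at 1 FPKM or more. C1r and C1s, the proteases that start the classical pathway, stood at 202 ± 4.71 and 70.6 ± 1.55 FPKM. Clu (clusterin) stood at 81.7 ± 2.03 FPKM and Serping1, the C1 inhibitor gene, at 21.2 ± 1.03. C3, the hub of the cascade, was at 0.483 ± 0.236 FPKM, and Cfb was listed at 0 in all 4 libraries. The secreted defence genes Slpi and Lcn2 were at 5.64 ± 1.83 and 1.77 ± 0.457 FPKM, and Ptx3 at 7.85 ± 0.686.

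**Figure D4:**
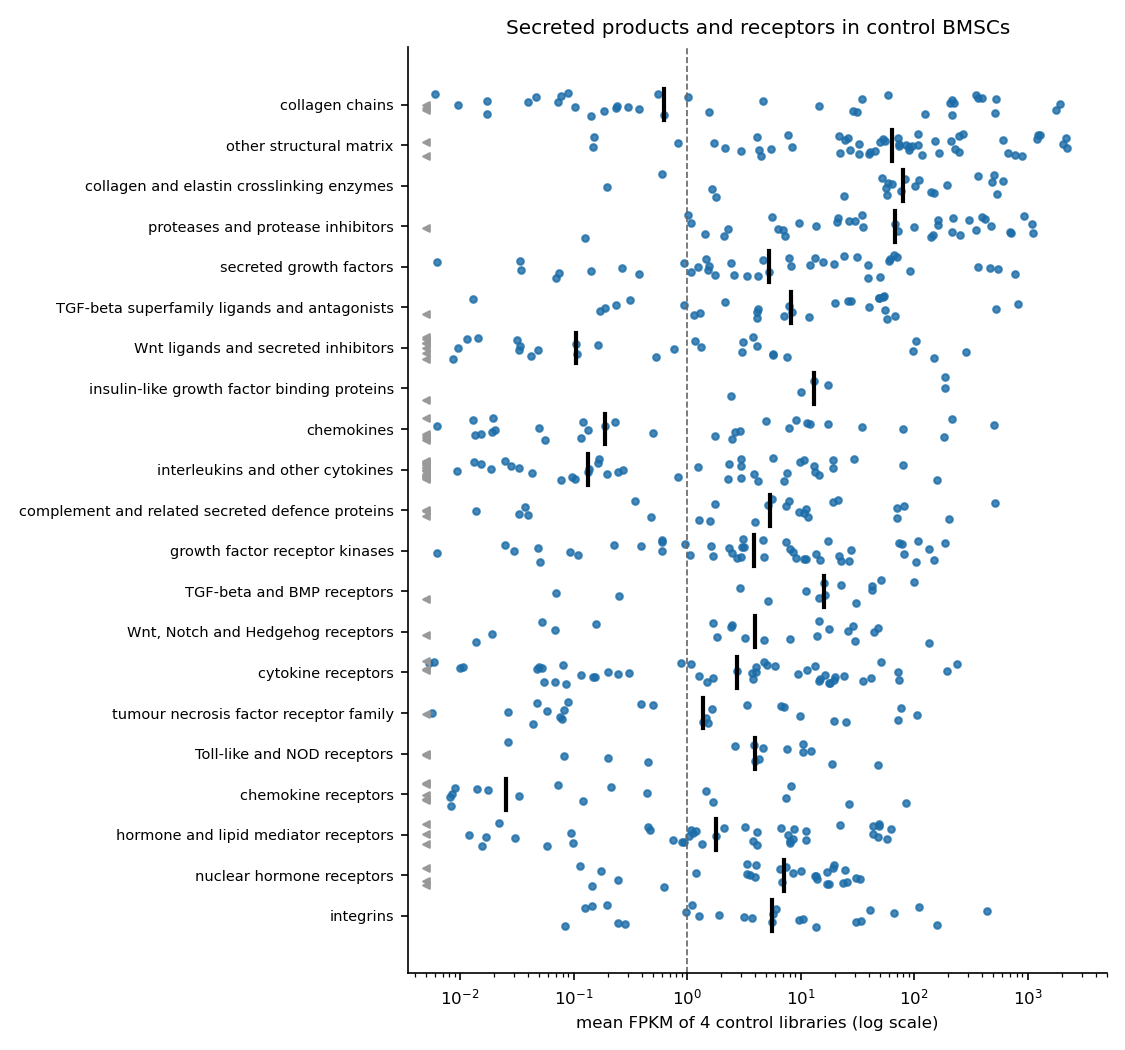
Mean FPKM over 4 control libraries (log scale) of each gene (blue point) in 11 lists of secreted products and 10 lists of receptors. Black bars are list medians, the dashed line is 1 FPKM and grey triangles are genes under 0.005 FPKM. Matrix, cross-linking and protease genes lie highest, and collagen chains, Wnt ligands, chemokines, cytokines and chemokine receptors have medians under 1 FPKM.

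Of 46 genes listed under growth factor receptor kinases, 33 were at 1 FPKM or more. Pdgfrb led at 189, 184, 187 and 190.5 FPKM. It was followed by Ddr2, a receptor for fibrillar collagen, at 149.9 ± 1.50 FPKM, and by Igf2r at 134 ± 1.77. The product of Igf2r clears IGF2 and sorts lysosomal enzymes and is not itself a kinase. Axl, a TAM receptor, stood at 103 ± 0.743 FPKM and Fgfr1 at 80.8 ± 2.54. The other FGF receptors were lower, with Fgfr2 at 13.8 ± 0.583 and Fgfr3 at 2.51 ± 0.427 FPKM. Igf1r was at 27.9 ± 0.545, Egfr at 14.7 ± 0.888 and Insr at 8.09 ± 0.503 FPKM. The vascular receptors Flt1 and Kdr lay at 0.0319 to 0.167 and 0.0421 to 0.0595 FPKM, and Met, the HGF receptor, at 1.61 ± 0.228 FPKM. All but 3 of 15 TGF-beta and BMP receptor genes were at 1 FPKM or more, with Tgfbr2 at 101 ± 1.99, Tgfbr3 at 51.2 ± 0.834, Bmpr2 at 42.5 ± 0.997 and Bmpr1a at 42.3 ± 2.07 FPKM.

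Among receptors of Wnt, Notch and Hedgehog, 16 of 22 were at 1 FPKM or more. Fzd1 led at 136 ± 1.20 FPKM, with the co-receptor Lrp6 at 48.3 ± 1.17 and the R-spondin receptors Lgr4 and Lgr5 at 43.9 ± 1.91 and 26.0 ± 1.14 FPKM. Lgr5, known as a marker of stem cells in the gut, stood at 26.0, 26.1, 27.3 and 24.5 FPKM. Notch2 was the main Notch gene at 29.1 ± 0.251 FPKM, above Notch3 at 2.50 ± 0.171 and Notch1 at 2.43 ± 0.269. Of 25 integrin genes 18 were at 1 FPKM or more. After Itgb1 came Itga11, whose product binds collagen I on fibroblasts, at 159 ± 2.48 FPKM, then Itgb5 at 111 ± 2.66 and Itgav at 67.0 ± 0.855 FPKM. Itgb2, the leukocyte beta chain, was next at 39.7, 41.7, 41.1 and 39.7 FPKM, beside Itgam and Itgal (1.92 ± 0.127 FPKM), which pair with it.

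Of 51 cytokine receptor genes 30 were at 1 FPKM or more. Il6st, the gene of gp130, the shared signal chain of the interleukin 6 family, stood at 236, 247, 239 and 237 FPKM. Its partner genes were lower, with Osmr at 51.4 ± 1.34, Il11ra1 at 20.1 ± 0.206, Il6r at 5.06 ± 0.467 and Lifr at 4.74 ± 0.355 FPKM. Il1rl1, which encodes the interleukin 33 receptor and a secreted decoy form, was the next highest at 198, 199, 194 and 194 FPKM, and FPKM per gene cannot separate these forms. Il1r1, the interleukin 1 receptor, stood at 72.0 ± 0.779 and its co-receptor Il1rap at 2.78 ± 0.220 FPKM. The interferon receptor genes Ifngr1 at 73.8 ± 3.26, Ifnar1 at 35.4 ± 1.20, Ifnar2 at 19.7 ± 1.84 and Ifngr2 at 14.7 ± 0.767 FPKM were all expressed. Among the TNF receptor family, 13 of 25 were at 1 FPKM or more, led by Tnfrsf12a at 107 ± 2.71, Tnfrsf1a at 76.3 ± 2.02 and Ltbr at 71.7 ± 1.89 FPKM, with Fas at 19.6 ± 0.701.

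Of 17 Toll-like and NOD receptor genes 11 were at 1 FPKM or more, led after Cd14 by the adaptor Myd88 at 19.0 ± 0.832 FPKM. Tlr3 stood at 12.5 ± 0.599, Tlr2 at 10.6 ± 0.492, Tlr8 at 10.5 ± 0.524, Tlr4 at 7.59 ± 0.730 and Tlr7 at 3.91 ± 0.265 FPKM. Tlr7 and Tlr8 are sensors of single-stranded RNA found mainly in myeloid cells, and the part of macrophages in their level was not tested. Of 22 chemokine receptor genes 6 were at 1 FPKM or more. The highest were the atypical receptors Ackr4 and Ackr3, which scavenge chemokines, at 85.1 ± 1.52 and 26.7 ± 0.489 FPKM. Cxcr4, the signalling receptor of CXCL12, was at 6.98, 7.95, 9.21 and 8.44 FPKM.

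Of 43 hormone and lipid mediator receptor genes 27 were at 1 FPKM or more. Ptgfr, the receptor of prostaglandin F2-alpha, led at 62.9 ± 2.42 FPKM, with F2r, the thrombin receptor gene, at 57.2 ± 1.04. The receptors of lysophospholipids were close to each other, with S1pr1 at 48.9 ± 2.24, S1pr3 at 48.6 ± 1.64 and Lpar1 at 47.8 ± 1.59 FPKM, whose libraries overlapped. Of the prostaglandin E receptors, Ptger1 at 11.2 ± 0.706, Ptger4 at 8.82 ± 0.692 and Ptger2 at 1.07 ± 0.219 FPKM passed 1 FPKM. Among nuclear receptors 24 of 32 were at 1 FPKM or more, with Nr2f2 (COUP-TFII) at 33.1 ± 0.408 and Nr3c1, the glucocorticoid receptor gene, at 30.9 ± 0.933 FPKM. Vdr, the vitamin D receptor gene, was at 3.40 ± 0.172 FPKM, while Esr1, an oestrogen receptor gene, lay at 0.0757 to 0.200 FPKM.

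Ligands and receptors were then set side by side in pairs picked after their levels were seen. In some pairs both were well above 1 FPKM, as for Gas6 at 462 ± 7.67 beside Axl at 103 ± 0.743 FPKM, Pdgfc at 59.8 ± 0.601 beside Pdgfra at 78.2 ± 1.13 FPKM, Tgfb1 at 49.4 ± 1.26 beside Tgfbr2 at 101 ± 1.99 FPKM and Igf1 at 39.3 ± 2.64 beside Igf1r at 27.9 ± 0.545 FPKM. In others the ligand was high and the receptor low, as for Cxcl12 at 506 ± 7.71 beside Cxcr4 at 8.14 ± 0.932 FPKM and Kitlg at 79.0 ± 2.13 beside Kit at 2.33 ± 0.205 FPKM. Angpt1 and Vegfa had their vascular receptors Tek and Kdr at 0.598 ± 0.104 and 0.0488 ± 0.00783 FPKM. Receptor exceeded ligand for Il6 (13.1 ± 0.632) with Il6st (239.8 ± 4.84 FPKM) and for Il33 (19.3 ± 0.768) with Il1rl1 (196 ± 2.63 FPKM). Csf1 exceeded Csf1r by a ratio of 6.85 to 7.25 in the 4 libraries. Which cells carried either side was not tested, and these are levels of messages.

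Cell cycle genes were all present, most of them at levels under 10 FPKM. All 32 in the list were at 1 FPKM or more, with a median of 3.75 FPKM and 6 at 10 or more. Pcna, the replication clamp gene, stood at 44.3 ± 2.28 FPKM, while the mitotic genes Mki67 at 3.75 ± 0.222, Top2a at 5.51 ± 0.358, Ccnb1 at 3.51 ± 0.560 and Plk1 at 2.39 ± 0.188 FPKM were lower. Inhibitors of the cycle and targets of p53 were higher, with all 25 at 1 FPKM or more and a median of 35.6 FPKM. Ccng1, a p53 target, stood at 369.5, 379, 367 and 368 FPKM and Cdkn1a, the gene of the inhibitor p21, at 300.0, 294, 289 and 297. Mdm2, which encodes the ligase that degrades p53, stood at 122 ± 2.15 FPKM and Gadd45a at 152 ± 3.79. Cdkn2b and Cdkn2a are neighbouring genes of the inhibitors p15 and p16, which rise in aging cultures. Cdkn2b stood at 44.6, 42.7, 43.0 and 42.5 FPKM and Cdkn2a at 32.1, 32.1, 29.7 and 33.9. FPKM per gene cannot separate the transcript forms of Cdkn2a, so its level is not that of p16 alone. The genes Eif2s3y and Kdm5d, which lie on the Y chromosome, stood at 53.4, 54.9, 51.6 and 55.4 and 14.1, 14.6, 15.1 and 14.8 FPKM. Other Y genes of the list were lower, with Ddx3y at 0.0420 to 0.164 FPKM, and Usp9y and Sry were listed at 0 in all 4 libraries.

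The spread between libraries was small and shrank as the level of the gene rose. The median coefficient of variation was 9.70% for genes of 1 to 10 FPKM, 3.95% from 10 to 100, 2.38% from 100 to 1000 and 1.46% above that. Counting error alone at the recovered reads would give medians of 6.88%, 2.75%, 1.18% and 0.451%. For the 4267 genes with at least 1000 reads in each library, the median spread beyond counting error was 2.25%. In 19.1% of them the variance was below that of counting. The 12 genes of highest variation among those of at least 5 FPKM had coefficients of 45.3% to 72.3% and rested on 3 to 46 reads. They were short or unannotated lines, among them Mirlet7b, Mirlet7d, Mirlet7c2 and SNORD26.

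Among named genes with at least 500 reads in each library, a choice made after the data were seen, those that varied most were mitochondrial genes that overlap a neighbour. Mt-nd4 stood at 23.5, 27.0, 51.3 and 25.9 FPKM and Mt-atp8 at 355, 357, 250.2 and 358, with control replicate 3 the highest for the first and the lowest for the second. The neighbour of Mt-nd4, Mt-nd4l, stood at 714, 741, 729 and 704 FPKM and that of Mt-atp8, Mt-atp6, at 2244, 2268, 2159 and 2251, without such a gap. Next in order after Mt-atp8 were Dgka at 10.5 ± 1.47, Heatr6 at 6.33 ± 0.866 and Per2 at 5.00 ± 0.674 FPKM, where Per2 is a gene of the circadian clock.

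**Figure D5:**
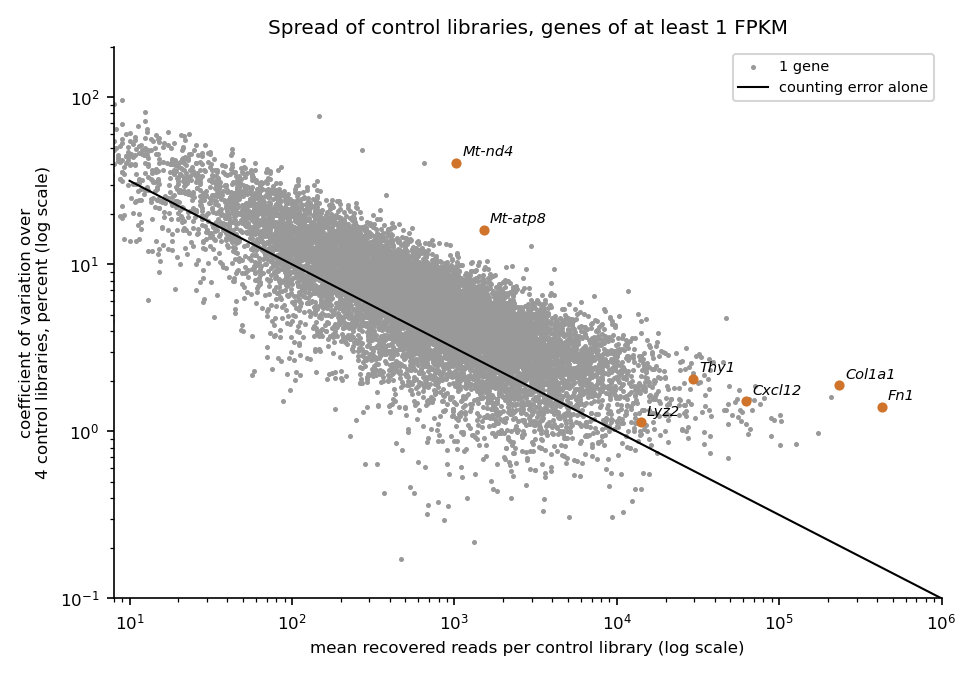
Coefficient of variation over the 4 control libraries (percent, log scale) against the mean number of recovered reads (log scale) for genes of at least 1 FPKM (grey points). The line is counting error alone. Points hug the line at low reads and lie above it at high reads, and Mt-nd4 and Mt-atp8 stand out at 40.7% and 16.1%.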

How the data were processed

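Poly(A) RNA of the cultures was captured on beads, made into libraries of 200 to 300 base inserts and sequenced on an Illumina instrument, per the labels' protocols. Per the submitters' processing notes, the genome build was rn6 and the tools named were STAR 2.7.1a, HTSeq 0.13.5, Cufflinks 0.17.3, cutadapt 1.18, FastQC 0.11.9 and SAMtools 1.3.1. Their settings, the annotation and the strand of the library are not given in the sources used here. The authors deposited FPKM values per gene, and the 4 control columns were used.

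For each gene the values over all 11 libraries were whole multiples, within a relative 1e-08, of the value of 1 read, which gave whole reads for 21487 of 21487 genes above 0. These reads served for depth, counting error, shares of reads and the minimum numbers of reads. The transcript lengths that grouped genes were also worked out from them and come from no annotation. The recovery was tested on simulated data. PCR copies are not independent molecules, so such errors cover counting alone. Of 32883 lines, 388 without a name kept their ID and 192 names on several lines were given by the line with the highest mean. Depth, taken as the sum over genes of the smallest whole reads that fit, was 21213271, 22504931, 25521204 and 21543955 reads. At that depth 1 read on a 1 kb transcript is worth 0.0392 to 0.0471 FPKM. Means, SDs and coefficients of variation were taken on the FPKM scale with no pseudocount, and a gene was counted at a mean of at least 1 FPKM. No test between groups was run.

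The members and the 43 gene lists were chosen with earlier results of these data known. Genes named were the 40 of highest mean, up to 6 highest and the first 5 members of each list, and the 12 of highest variation from 5 FPKM. Other list members were named after their values were seen. Promoters are from RefSeq (GRCr8), a build other than that of the values, matched by symbol. Alternatives were each library left out, another scaling, the median, other minimum levels and, for names on several lines, their sum, and those for the spread were chosen after seeing the data. Some genes are not reported here. Python 3.11.15, NumPy 2.4.6, pandas 2.3.3 and matplotlib 3.10.9 were used.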

Additional observations from a re-analysis of the deposited data

Results flagged for a closer look

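In 25 of 432 values examined (levels of the genes named in the text and summed levels of lists), 5.79%, a single control library stood apart from the other 3. The gap to the nearest of the others, as a share of the range of the 4 libraries, was above the 95% critical value of Dixon's test. A gene at 0 in all libraries but 1 has a gap equal to the range, so Aspn, Ccl5 and Tnf were flagged by construction. Chance flags about 1 in 20 groups of 4, and the share found, which counts these genes, is close to that.

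Control replicate 3, the deepest library, held 7 of these values. Mgp stood at 145 FPKM, below the other libraries at 154.60 to 155.49. For Mt-atp8 the value was 250.2 FPKM against 355 to 358 elsewhere. A level of 51.3 FPKM was seen for Mt-nd4, beside 23.5 to 27.0 FPKM in the others. Pkm stood at 323 FPKM, above the other libraries at 308.80 to 309.17. For Timp1 the value was 379 FPKM against 400.74 to 401.23 elsewhere. A level of 11.3 FPKM was seen for Tlr2, beside 10.3 to 10.4 FPKM in the others. The summed FPKM of Wnt ligands and secreted inhibitors was 665, below 674 to 675 in the other libraries.

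Control replicate 2 held 10 of them. Aspn stood at 0.0190 FPKM, above the other libraries at 0. For Ccl5 the value was 0.0815 FPKM against 0 elsewhere. A level of 1872 FPKM was seen for Col3a1, beside 1928 to 1939 FPKM in the others. Ddr2 stood at 148 FPKM, below the other libraries at 150.54 to 150.75. For Enpp1 the value was 20.9 FPKM against 19.46 to 19.47 elsewhere. A level of 21.1 FPKM was seen for Nt5e, beside 23.2 to 23.5 FPKM in the others. Phospho1 stood at 1.80 FPKM, below the other libraries at 2.37 to 2.48. For Tgfb1 the value was 47.5 FPKM against 49.9 to 50.1 elsewhere. A level of 0.0527 FPKM was seen for Tnf, beside 0 FPKM in the others. Vegfb stood at 27.6 FPKM, below the other libraries at 32.2 to 33.0.

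Control replicate 1 held 5 of them. Ccl7 stood at 81.3 FPKM, above the other libraries at 78.4 to 78.6. For Ifitm2 the value was 377 FPKM against 358 to 361 elsewhere. A level of 11.3 FPKM was seen for Igf2, beside 12.2 to 12.3 FPKM in the others. Timp3 stood at 33.4 FPKM, below the other libraries at 34.7 to 34.9. The summed FPKM of Hox genes was 84.2, below 88.9 to 89.7 in the other libraries.

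Control replicate 4 held 3 of them. Hgf stood at 1.32 FPKM, below the other libraries at 1.61 to 1.64. For Sost the value was 0 FPKM against 0.0586 to 0.0704 elsewhere, where the gene rested on 1 read per library. A level of 577 FPKM was seen for Tpm4, beside 556 to 559 FPKM in the others.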

How the results depend on the processing

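Leaving out each control library in turn gave 11837 to 11915 genes at 1 FPKM or more, 600 to 606 list members at that level and 21.2% to 21.3% of the summed FPKM in the 100 highest genes. The mean over libraries of the median deviation from the others, 3.25% in genes of at least 10 FPKM, was 3.26% to 3.61% in those runs. It was 4.80% over genes from 1 FPKM and 2.12% over genes from 100 FPKM. By construction these settings take in lower genes or keep only higher ones. Without ribosomal protein and mitochondrially encoded genes the 100 highest held 18.8%, in place of 21.3%. A line at 0.5 FPKM in place of 1 FPKM counted 12924 genes and 638 of 1003 list members, and a line at 5 FPKM counted 8818 and 433. At 5 FPKM, 18 of the 43 lists fell by over 1.5 times in count, so the counts at 1 FPKM rest on low genes there. Summing lines that share a name moved none of the 420 named levels by more than 1 SD. Rescaling by median ratios and the median over libraries moved none either, but these settings could hardly do so. A median cannot differ from the mean of the same values by more than 1 SD, and the rescaling factors were centred on 1. The median of the 420 named levels, 22.9 FPKM, was 22.8 to 23.1 with a library left out and 23.05 with the median over libraries. The only epithelial gene near the line, Krt8, was counted without control replicate 2. Ahsp was not counted without control replicate 1 or 3. On a 1 kb transcript, a level under 0.0471 FPKM rests on less than 1 read in the shallowest library. No paired analysis was possible because the values come from no test and from a single group.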

Other observations

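Single genes outside the lists were picked after their values were seen, and they do not stand for a group. Chaperone genes of the endoplasmic reticulum, where secreted proteins fold, included Calr at 902 ± 11.2, Pdia3 at 487 ± 13.9, Hsp90b1 at 364 ± 8.65 and Hspa5 at 360.0 ± 4.52 FPKM. Genes induced by folding stress included Ddit3, the gene of a factor linked to cell death under folding stress, at 45.1 ± 2.94 and Trib3 at 8.02 ± 0.816 FPKM. Among genes that answer oxidative stress, Prdx1 stood at 506 ± 15.1, Nqo1 at 329 ± 9.36 and Hmox1, the haem oxygenase gene, at 222 ± 5.93 FPKM. Among glycolytic genes were Aldoa at 396 ± 10.2, Ldha at 378 ± 4.84, Eno1 at 347 ± 6.05 and Pkm at 312 ± 7.05 FPKM.

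Ifitm3 and Ifitm2, which encode membrane proteins that block virus entry, stood at 539 ± 5.74 and 364 ± 8.77 FPKM. Other genes known to be induced by interferon were lower, with Isg15 at 2.86 ± 0.578, Ifit3 at 0.927 ± 0.183 and Ifit1 at 0.374 ± 0.108 FPKM and Mx1 at 0.299, 0.161, 0.177 and 0.196 FPKM. B2m, the light chain of MHC class I, stood at 415, 413, 394 and 407 FPKM, while the class II genes lay under 1 FPKM as given above. Of the genes of sterol synthesis and its control, Sqle stood at 114 ± 1.98 and Insig1 at 143 ± 2.00 FPKM.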
